A study of Mus musculus with 4 samples.

Results

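Secretoglobin genes of the androgen-binding protein family and Spt1 were followed in sublingual salivary glands of mice without Nkx2-3. The rows taken were 9 of the 24411 gene rows in the count table: the alpha subunit genes Scgb1b2, Scgb1b24 and Scgb1b27, the beta-gamma subunit genes Scgb2b2, Scgb2b20, Scgb2b24, Scgb2b26 and Scgb2b27, and Spt1. They were chosen by name, with their measured levels in these same libraries already known, so levels, order and likeness over the libraries are given as a description. All 9 passed the low-count filter of the age comparison. Glands came from female mice on the C57BL/6J background that carried the Nkx2.3-/- genotype, aged 32 weeks (replicates 3 and 4) or 8 weeks (replicates 1 and 2), with 1 RNA sequencing library each. Both ages lack the gene, and no gland with intact Nkx2-3 was analysed here. Whether the 2 libraries of an age came from separate animals is not stated, so any p-value measures the spread between these libraries, which may be technical.

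Secretoglobins are small secreted proteins that work as dimers. In the mouse, androgen-binding proteins are made of an alpha chain, encoded by a Scgb1b gene, joined by disulfide bonds to a beta-gamma chain, encoded by a Scgb2b gene. They are secreted in saliva and tears and have been studied as signals in mate choice between house mouse subspecies. The genes form a large tandem cluster in which an alpha and a beta-gamma gene often stand head to head as a module. RefSeq lists Spt1 as a synonym of Mucl2, a mucin-like gene of the salivary glands, and lists "lacrimal" as a synonym of Scgb2b2.

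Depth lay between 12925869 and 16484772 counts per library. Nkx2-3 had 21 and 29 counts at 32 weeks, against 31 and 28 at 8 weeks. No source used here gives the deleted part of the gene, so these counts check nothing. The libraries did not divide by age. Over the 12810 genes tested, the median absolute difference in log2 CPM (read counts relative to library size, scaled by the TMM method) was 0.181 within the 32-week age and 0.331 within the 8-week age, while 32-week replicate 4 and 8-week replicate 1 differed by 0.176, the smallest of the 6 values. 8-week replicate 2 stood apart, at 0.289 to 0.331 from the other libraries, which lay 0.176 to 0.197 from each other, and it was also the lowest library of 8 of the 9 members. As for the tissue, Muc19, the gel-forming mucin of this gland, reached 20281 and 16721 CPM at 32 weeks, against 12021 and 13869 CPM at 8 weeks, and all 6 listed mucous acinar and all 6 listed demilune markers had counts, although Tff2 and Bpifb2 had only 1 count each over the 4 libraries. Of 14 submandibular granular duct markers, 13 had counts, led by Egf, and of 7 parotid markers 6 had counts, led by Car6, while Ren1 and Prb1 were at 0. 8-week replicate 1 lay far above the other libraries for a few markers of these glands, picked after their values were seen. The parotid enzyme gene Amy1 had 29 and 28 counts at 32 weeks, against 2059 and 29 at 8 weeks, Dnase1 had 14 and 12 at 32 weeks, against 337 and 16 at 8 weeks, and the submandibular gene Smr3a had 0 and 0 at 32 weeks, against 674 and 0 at 8 weeks. The lists as a whole did not follow these markers. 8-week replicate 2 was highest for 10 of 13 submandibular and 3 of 6 parotid markers with counts, and 8-week replicate 1 for 2 and 2. Prol1, also on the parotid list, had 145 and 7 counts at 32 weeks, against 2658 and 2946 at 8 weeks. Spt1 was highest in 8-week replicate 1, and the part of such signal in the members' levels was not tested.

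The 8 secretoglobins lay on chromosome 7 within 2.73 megabases of the NCBIM37 assembly (32075539 to 34807900), the assembly that mm9 denotes. Each gene has a 3-exon transcript in the GENCODE vM1 annotation, and Scgb1b27 has a second transcript with 2 exons. Scgb1b27 (34806502 to 34807900, plus strand) and Scgb2b27 (34796951 to 34798961, minus strand) stand back to back with 7540 bases between them. Scgb1b24 (34528811 to 34530122, plus strand) and Scgb2b24 (34522209 to 34524331, minus strand) are 4479 bases apart, and Scgb1b2 (32075539 to 32076835, minus strand) and Scgb2b2 (32087780 to 32089996, plus strand) are 10944 bases apart, both in the same divergent arrangement. Scgb2b26 lies at 34728021 to 34730059 and Scgb2b20 at 34149362 to 34151338, both on the minus strand. Spt1 was not found in the vM1 annotation. In NCBIM37, pieces of 40 bases from its RefSeq promoter matched 2 unplaced contigs and no chromosome, covering 60% of the 300-base window in one contig and 33.3% in the other. How its reads were counted is therefore uncertain.

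The promoters of the family are shown because 1 short element, among many other differences, was present in some beta-gamma genes and absent from others. RefSeq promoter windows (GRCm38.p6, 250 bases before to 50 bases after the annotated start) matched all 8 secretoglobins, each with a single exact match in NCBIM37, and Spt1 through Mucl2. The lines below give the same 50-base stretch of each beta-gamma member, 5′ to 3′ on the gene's strand, with TGTTCT in capitals. TGTTCT and its reverse complement AGAACA are known as part of the DNA element bound by the glucocorticoid receptor.
Scgb2b2, chr7:31302560-31302609, plus strand: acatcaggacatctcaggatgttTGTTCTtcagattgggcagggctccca
Scgb2b20, chr7:33366472-33366521, minus strand: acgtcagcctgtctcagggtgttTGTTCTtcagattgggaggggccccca
Scgb2b24, chr7:33739462-33739511, minus strand: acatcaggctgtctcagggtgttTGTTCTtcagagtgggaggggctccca
Scgb2b26, chr7:33945133-33945182, minus strand: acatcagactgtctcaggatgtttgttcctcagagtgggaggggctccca
Scgb2b27, chr7:34014017-34014066, minus strand: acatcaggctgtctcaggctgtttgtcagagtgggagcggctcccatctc

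TGTTCT, searched on both strands, was in the windows of Scgb2b2, Scgb2b20 and Scgb2b24 and not in those of Scgb2b26 and Scgb2b27. It was not in the windows of Scgb1b2, Scgb1b24, Scgb1b27 or Spt1 either. Of 32851 RefSeq windows of this length, 19.0% held it. The element was singled out after the levels had been seen, and a match of letters is a description only.

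Alpha and beta-gamma genes also differed in the stretch around a TATA-like run, shown next for 1 pair of abundant and 1 pair of scarce genes, with GTTATAAAA (alpha) or TTTATA (beta-gamma) in capitals.
Scgb1b27, chr7:34021500-34021529, plus strand: cccactctgcagaccagggcaGTTATAAAA
Scgb1b24, chr7:33743732-33743761, plus strand: cccactgagcagaccagggcaGTTATAAAA
Scgb2b27, chr7:34013899-34013928, minus strand: gggtgataatcgTTTATAaggaagaggatt
Scgb2b24, chr7:33739323-33739352, minus strand: gggctataatggTTTATAgggaagaagatc
GTTATAAAA was in all 3 alpha windows and in 0.362% of all windows, and TTTATA, or TATAAA on the other strand, was in all 8 secretoglobin windows and in 13.6% of all windows. The alpha run contains TATAAA, so these matches overlap. The run began 29 to 45 bases before the annotated start in Scgb2b2, Scgb2b20, Scgb2b24, Scgb2b26, Scgb1b2 and Scgb1b24, but 40 bases after it in Scgb1b27 and 26 bases after it in Scgb2b27, so the windows of these abundant genes are offset from the others and their annotated starts are uncertain. Aligned stretches of the windows (207 to 293 bases) were 79.0% to 79.4% identical among the alpha members and 78.5% to 91.2% among the beta-gamma members, the highest value being that of Scgb2b26 and Scgb2b27. For Spt1, which was not aligned with the secretoglobins, the 200 bases before the annotated start are shown, with its TATATA run in capitals (5.67% of all windows hold one).
Spt1, chr15:103899313-103899512, minus strand: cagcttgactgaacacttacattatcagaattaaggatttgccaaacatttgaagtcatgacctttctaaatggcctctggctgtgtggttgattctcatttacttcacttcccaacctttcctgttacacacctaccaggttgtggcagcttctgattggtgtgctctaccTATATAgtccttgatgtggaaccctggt

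Together the 9 genes took 4.85% and 10.9% of all counts in the 32-week libraries (replicates 3 and 4) and 13.5% and 3.68% in the 8-week libraries (replicates 1 and 2). Spt1 alone took 0.272% and 3.85% at 32 weeks, against 6.82% and 0.371% at 8 weeks. The 8 secretoglobins took 4.57% and 7.02% at 32 weeks, against 6.65% and 3.30% at 8 weeks. Within each age, Spt1 made up the larger part of the difference in the joint share, but between 32-week replicate 4 and 8-week replicate 2 the secretoglobins did.

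Scgb1b27, the alpha chain described from mouse saliva, stood at 25302 and 31874 CPM in 32-week replicates 3 and 4, against 30715 and 17131 CPM in 8-week replicates 1 and 2. By count, it was among the 9 highest genes of every library. Scgb2b27, its neighbour and salivary beta-gamma chain, stood at 22899 and 24294 CPM at 32 weeks, against 23821 and 12370 CPM at 8 weeks. For both genes 8-week replicate 2 was the low library and the ages overlapped. The other 3 libraries lay close together for Scgb2b27, while for Scgb1b27 the level in 32-week replicate 3 lay between the low library and the 2 highest. Scgb2b26, the other salivary beta-gamma chain, stood at 3857 and 9223 CPM at 32 weeks, against 8268 and 3020 CPM at 8 weeks. In Scgb2b26, both 32-week replicate 3 and 8-week replicate 2 were low.

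The remaining secretoglobins were far scarcer and more uneven. Scgb2b24, a beta-gamma gene, stood at 29.5 and 184.6 CPM at 32 weeks, against 300.9 and 13.7 CPM at 8 weeks. Scgb2b2, the beta-gamma gene with the lacrimal synonym, stood at 23.2 and 161 CPM at 32 weeks, against 278 and 12.98 CPM at 8 weeks. Each age held 1 high and 1 low library for both genes, so the ages overlapped. Scgb2b20, also a beta-gamma gene, stood at 9.61 and 44.3 CPM at 32 weeks, against 63.02 and 3.59 CPM at 8 weeks. The alpha gene Scgb1b2 had 14 and 186 counts at 32 weeks, against 135 and 7 at 8 weeks, and Scgb1b24 had 19 and 166 counts at 32 weeks, against 130 and 10 at 8 weeks. The low and high libraries of these alpha genes differed beyond counting error. Exact 95% Poisson intervals, which cover that error only, reached from 0.194 to 0.996 CPM for Scgb1b2 in 8-week replicate 2 and from 8.35 to 11.8 CPM in 8-week replicate 1.

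Spt1 was the most uneven of the abundant members. It stood at 3102 and 36104 CPM in 32-week replicates 3 and 4, against 65020 and 3654 CPM in 8-week replicates 1 and 2. By count, it held place 3 of all genes in 8-week replicate 1 and place 4 in 32-week replicate 4, and places 17 and 19 in 8-week replicate 2 and 32-week replicate 3. The high and the low libraries of Spt1 differed by more than 10-fold within each age.

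**Figure D1:**
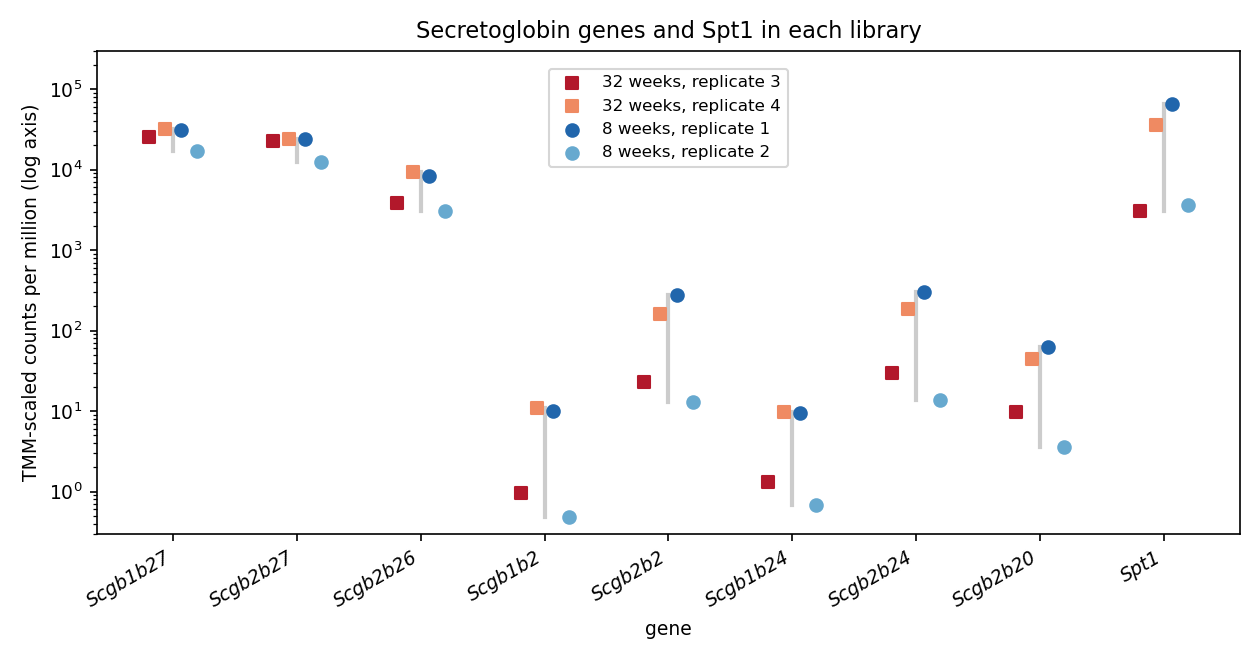
TMM-scaled CPM (log axis) of the 9 genes, 1 point per library, with 32-week libraries as squares and 8-week libraries as circles and a grey line from the lowest to the highest library. Scgb1b27 and Scgb2b27 have all 4 points between 12370 and 31874 CPM, while 8-week replicate 1 and 32-week replicate 4 lie far above the other libraries for Spt1 and the scarce secretoglobins.

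Levels of different genes were compared per kilobase of transcript, which could be done for the 8 secretoglobins. Scgb2b27 reached 40386 and 42847 CPM per kilobase at 32 weeks, against 42013 and 21816 at 8 weeks. Scgb1b27 reached 33205 and 41830 CPM per kilobase at 32 weeks, against 40309 and 22482 at 8 weeks, with its longest transcript of 762 bases, and a mean of 53257 rather than 34456 with its 3-exon transcript of 493 bases. Which of these neighbours is higher thus depends on the transcript used. Scgb2b26 came next, with a mean of 10522 CPM per kilobase. Means were 253 for Scgb2b24, 229 for Scgb2b2, 57.9 for Scgb2b20, 13.3 for Scgb1b2 and 13.1 for Scgb1b24. The pairs Scgb2b24 and Scgb2b2, and Scgb1b2 and Scgb1b24, did not differ beyond their spread over libraries, although Scgb2b2 was the lower of its pair within each library.

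The members differed widely in their range over the 4 libraries, taken as the highest minus the lowest log2(CPM + 0.5). The range was 0.90 for Scgb1b27, 0.97 for Scgb2b27 and 1.61 for Scgb2b26. Ranges at least this large were found in 15.3%, 11.95% and 1.6003% of genes tested, so each was more uneven than most genes. The range was 3.09 for Scgb1b24, 3.52 for Scgb1b2, 3.96 for Scgb2b20, 4.37 for Scgb2b2, 4.39 for Spt1 and 4.41 for Scgb2b24. The median range was 0.51 over the 12810 genes tested and 3.52 over the 9 members. Only 6 of all tested genes had a range at least as large as that of Scgb2b24, that gene included. On the linear scale, the highest library exceeded the lowest by 21.0-fold for Spt1 and 22.0-fold for Scgb2b24, against 1.86-fold for Scgb1b27. A highest library at least 4 times the lowest was seen in 6 of 9 members and in 2.54% of genes tested, and since the members were chosen with these values known, nothing is read from that difference. Without 8-week replicate 2, a choice made after seeing the data, the range fell to 0.085 for Scgb2b27 and 0.33 for Scgb1b27, against 0.97 and 0.90 with it, and the median over all genes fell to 0.31. Spt1 kept 4.39 without that library and had 3.54 without 8-week replicate 1. The count of 6 members past 4 times was the same with any single library left out, beside 1.2% to 1.93% of genes tested. Nothing is read from this either, for the same reason.

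**Figure D2:**
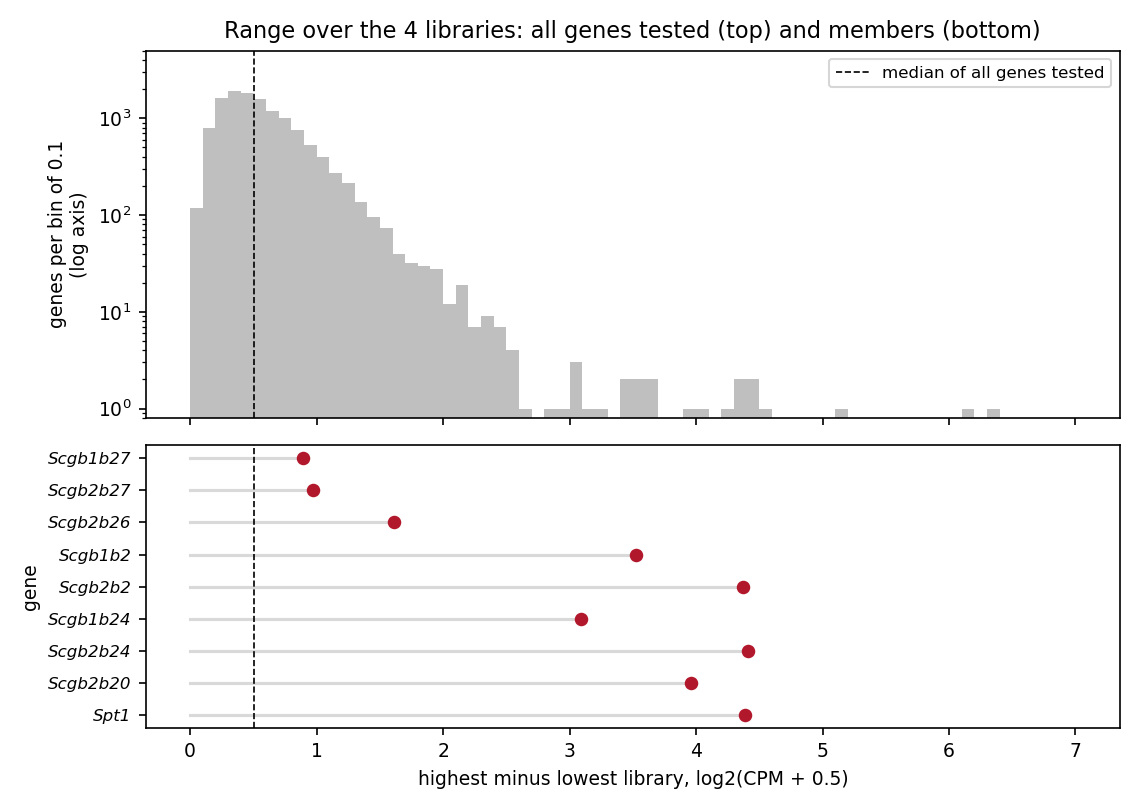
Range over the 4 libraries, as the highest minus the lowest log2(CPM + 0.5), for all 12810 genes tested (top, genes per bin on a log axis) and for each member (bottom), with a dashed line at the median of 0.51. Scgb1b27 and Scgb2b27 lie above the median, at ranges reached by 15.3% and 11.95% of genes tested. Spt1 and the 5 scarce secretoglobins lie between 3.09 and 4.41.

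Subunit pairing was described by ratios of counts within a library, which do not depend on the scaling between libraries. For the abundant genes the read counts of the chains were near balance, before any correction for transcript length. Reads of Scgb1b27 over the sum of Scgb2b26 and Scgb2b27 had a ratio of 0.946 and 0.951 in the 32-week libraries and of 0.957 and 1.11 in the 8-week libraries. Per kilobase, the same ratio was 0.706 and 0.712 at 32 weeks and 0.716 and 0.832 at 8 weeks with the longest Scgb1b27 transcript, or 1.09 and 1.10 at 32 weeks and 1.11 and 1.29 at 8 weeks with the shortest. The ratio thus varied little between libraries, with 8-week replicate 2 apart from the rest, while its level around balance depended on the transcript length.

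The abundant beta-gamma chains did not keep a fixed proportion to each other. Reads of Scgb2b26 over Scgb2b27 had a ratio of 0.168 and 0.380 at 32 weeks, against 0.347 and 0.244 at 8 weeks. The ratio of Scgb1b27 to the sum of both chains ranged over 0.24 on the log2 scale, against 0.33 for Scgb1b27 to Scgb2b27 alone and 0.92 for Scgb1b27 to Scgb2b26 alone. That order rests on single libraries. Without 32-week replicate 3 the range was 0.10 for Scgb2b27 alone and 0.23 for the sum, and without 8-week replicate 2 it was 0.25 for Scgb2b27 alone and 0.017 for the sum.

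In the scarce modules, beta-gamma reads far exceeded alpha reads. Scgb2b24 over Scgb1b24 had a read ratio of 22.5 and 19.1 at 32 weeks, against 31.4 and 19.8 at 8 weeks. Scgb2b2 over Scgb1b2 had a read ratio of 24.0 and 14.9 at 32 weeks, against 27.9 and 26.9 at 8 weeks. The excess remained per kilobase, at 14.9 to 24.4 for the first pair and 11.96 to 22.5 for the second. These ratios moved by 0.71 and 0.91 on the log2 scale. The log2 CPM of the genes themselves, taken with TMM scaling but without the added 0.5, moved by 3.81 to 4.48. The genes of these modules thus varied together across libraries, but some genes of different modules did so at least as closely. Scgb1b2 over Scgb1b24 had a log2 range of 0.68, and Scgb2b2 over Scgb2b24 one of 0.27. Outside the members, Scgb2b7 over Scgb1b7 ranged over 1.88, with 1 count of Scgb1b7 in 8-week replicate 2. The range of Scgb2b24 over Scgb1b24 fell to 0.23 without 8-week replicate 1, and that of Scgb2b2 over Scgb1b2 to 0.22 without 32-week replicate 4.

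Ratios between modules varied to different degrees. Scgb2b2 over Scgb2b24, which lie over 2 megabases apart, had a read ratio of 0.787 and 0.872 at 32 weeks, against 0.925 and 0.949 at 8 weeks, a log2 range of 0.27. Spt1 over Scgb2b2, on different chromosomes, had a ratio of 133.5 and 224 at 32 weeks, against 234 and 282 at 8 weeks, a log2 range of 1.08, which was 0.33 without 32-week replicate 3. Over Scgb2b24, Spt1 ranged over 1.35. These values are close to the 1.17 of Scgb2b26 over Scgb2b27. Spt1 over Scgb2b27 instead had a ratio of 0.135 and 1.49 at 32 weeks, against 2.73 and 0.295 at 8 weeks, a log2 range of 4.33. Scgb2b24 over Scgb2b27 ranged over 3.51 on the log2 scale, and was thus no fixed share of its abundant paralog.

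**Figure D3:**
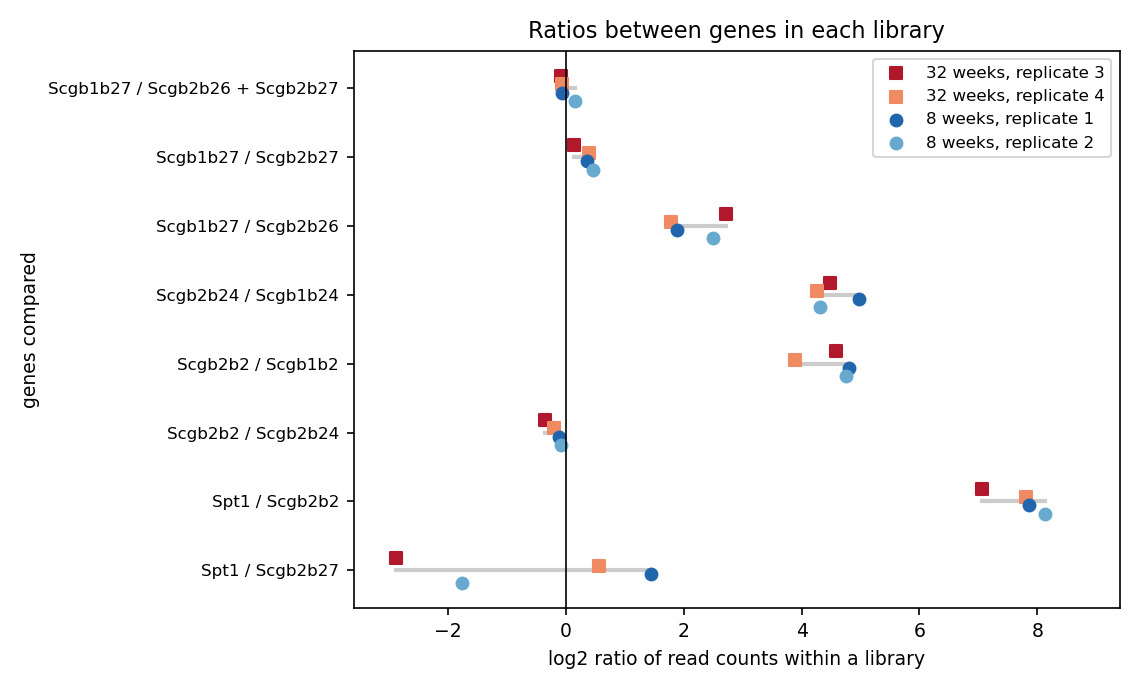
Log2 ratios of read counts within each library, 1 point per library (squares, 32 weeks; circles, 8 weeks), with a grey line over the range and a vertical line at equal counts. Scgb1b27 stays close to the sum of Scgb2b26 and Scgb2b27 in every library, Scgb2b2 and Scgb2b24 stay close to each other, and Spt1 over Scgb2b27 spreads over 4.33.

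How far reads can be told apart between copies was checked on the vM1 transcripts. Of all 50-base words in a member's longest transcript, compared with the 13 other annotated secretoglobin transcripts that could be matched, 100% were unique for Scgb1b2, Scgb1b24, Scgb1b27 and Scgb2b24. The share was 98.3% for Scgb2b26, 96.7% for Scgb2b27 and 94.5% for Scgb2b2. It was 48.4% for Scgb2b20, whose transcript is 98.7% identical to that of Scgb2b7, so the division of reads between Scgb2b20 and Scgb2b7 is uncertain. Scgb2b12 and Scgb1b3 were not among the matched transcripts. No source used here gives the read length or the treatment of reads with several matches.

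All 9 members had 8-week replicate 1 and 32-week replicate 4 as their 2 highest libraries, which held for 20.9% of genes tested. The full order divided them. Scgb1b2, Scgb1b24, Scgb1b27, Scgb2b26 and Scgb2b27 were highest in 32-week replicate 4, followed by 8-week replicate 1, 32-week replicate 3 and 8-week replicate 2, an order shared by 6.23% of genes tested. Scgb2b2, Scgb2b20 and Scgb2b24 were highest in 8-week replicate 1, followed by 32-week replicate 4, 32-week replicate 3 and 8-week replicate 2, an order shared by 8.74% of genes tested. Spt1 had the same leading pair as these, with 32-week replicate 3 lowest (3.26% of genes tested). All 9 orders were the same with each of the 4 other scalings tried. Neighbouring places rest on small differences for some genes, as between 10.8 CPM in 32-week replicate 4 and 9.96 CPM in 8-week replicate 1 for Scgb1b2, where the Poisson intervals overlap.

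**Figure D4:**
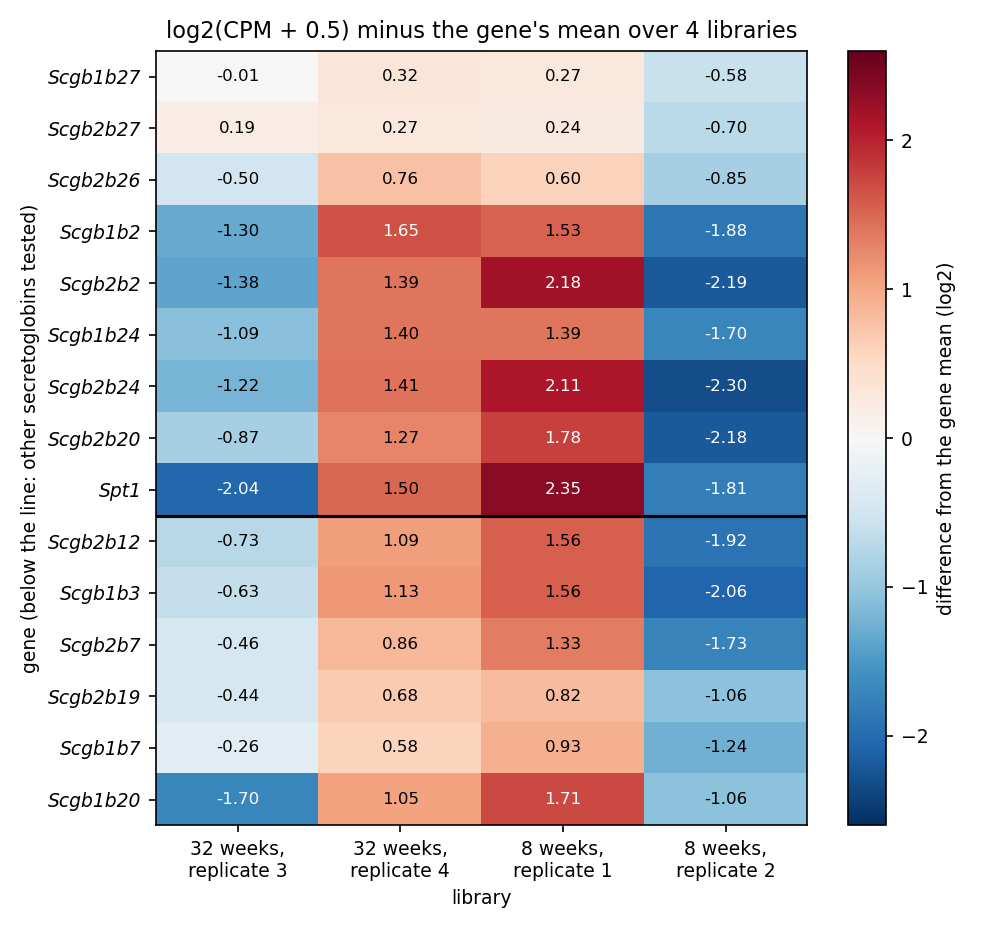
Difference of log2(CPM + 0.5) from each gene's mean over the 4 libraries, for the 9 members (above the line) and the 6 other secretoglobins tested for age (below it), with 32-week libraries on the left. Spt1 lies at -2.04 and 1.4991 in the 32-week libraries and at 2.35 and -1.81 in the 8-week libraries, and Scgb2b27 at 0.19 and 0.27, then 0.24 and -0.70.

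Likeness was measured as the root mean square difference of these centred values over the 4 libraries, across genes with a mean of at least 10 CPM. With only 4 libraries, many genes can look alike, and the measure is a description. The values were centred but not scaled, so a gene with a wide range can lie near only to genes with wide ranges. Among genes tested, 8 had a range at least as large as that of Spt1 and 22 as that of Scgb2b7, each gene itself included. The genes that could lie near Spt1 were thus few. The 6 genes nearest to Spt1 of 6686 were all secretoglobins: Scgb2b2 (0.40), Scgb2b24 (0.50), Scgb2b20 (0.69), and, outside the members, Scgb2b12 (0.79), Scgb1b3 (0.84) and Scgb2b7 (0.99). The next, at 1.23, was the gene model Gm5886, which is named after its value was seen. Scgb2b2 and Scgb2b24 were each other's nearest gene (0.10), and the 3 nearest non-members of Scgb2b2, Scgb2b20 and Scgb2b24 were again Scgb2b12, Scgb1b3 and Scgb2b7. The abundant secretoglobins had other neighbours. The nearest non-members of Scgb1b27 were Sipa1l3 (0.0096), Pabpc4 (0.026) and Abhd12 (0.037), those of Scgb2b27 were the ribosomal protein gene Rpl13a (0.011), Impdh1 (0.014) and Rbm17 (0.024), and those of Scgb2b26 were the complement gene C3 (0.18), Slc25a34 (0.19) and the carboxypeptidase gene Cpe (0.19). From Scgb1b27, the gene Scgb2b27 stood at place 176 (0.12) and Scgb2b26 at place 3589 (0.39), and Spt1 was at 1.68.

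Levels of other secretory genes moved with these differences. In bulk tissue, fewer cells of a type and less RNA per cell cannot be told apart. The summed level of the 6 mucous acinar markers was 62407 and 142750 CPM in the 32-week libraries, against 154265 and 87223 CPM in the 8-week libraries, most of it from Smgc, and 3 of the 6 were highest in 8-week replicate 1 and 32-week replicate 4. Smgc itself, a secreted product of mucous acinar cells, had 41973 and 125863 CPM at 32 weeks, against 142077 and 73277 CPM at 8 weeks, and its library order was that of Spt1. Muc19, the next most abundant, had the ends of that order swapped, with 32-week replicate 3 highest and 8-week replicate 1 lowest. In both genes 32-week replicate 4 stood above 8-week replicate 2. The 6 demilune markers, led by Dcpp3, summed to 480050 and 192501 CPM at 32 weeks, against 171918 and 357584 CPM at 8 weeks. Their sum was thus high where Spt1 was low. Of the 6, 5 were highest in 32-week replicate 3. Lyz1 was highest in 32-week replicate 4, with 3.94 and 5.18 CPM at 32 weeks, against 2.88 and 2.83 CPM at 8 weeks. The 8 duct markers varied less, with 985 and 1051 CPM at 32 weeks, against 922 and 1107 CPM at 8 weeks. The part of acinar composition in the pattern of Spt1 and the scarce secretoglobins was not tested.

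Markers of other cell types and glands moved with the members in part. The 4 adipocyte markers, led by Car3, summed to 0.138 and 4.01 CPM at 32 weeks, against 24.5 and 3.66 CPM at 8 weeks, the order of Spt1. All 4 were highest in 8-week replicate 1, where Car3 alone had 20.2 CPM. The others had few counts even there, with 40 for Adipoq, 16 for Cidec and 2 for Plin1. Cidec had 14 in 32-week replicate 4. The 4 plasma cell markers in the table, led by Xbp1, summed to 1277 and 1441 CPM at 32 weeks, against 1619 and 528 CPM at 8 weeks. That sum had the order of Scgb2b2, Scgb2b20 and Scgb2b24, but of the single markers only Jchain did. Xbp1 was highest in 32-week replicate 3, and all 4 were lowest in 8-week replicate 2. The part of adipocytes and plasma cells in the members' patterns was not tested. The 14 submandibular granular duct markers summed to 326 and 226 CPM at 32 weeks, against 411 and 596 CPM at 8 weeks, with the highest sum in 8-week replicate 2, where Spt1 and every scarce secretoglobin were low. The 7 parotid markers, led by Car6, summed to 1000.3 and 1483 CPM at 32 weeks, against 1281 and 2734 CPM at 8 weeks. The 6 lacrimal and Harderian markers in the table, led by Mup4, summed to 343 and 170 CPM at 32 weeks, against 61.6 and 166 CPM at 8 weeks, and Obp1a was at 0 in all. 8-week replicate 1 was highest for 2 of the 13 submandibular and 2 of the 6 parotid markers with counts, among them Smr3a, Amy1 and Dnase1, while the sums are mostly those of Egf, Crisp3 and Car6. Of the 6 lacrimal markers, 2 had 8-week replicate 1 and 32-week replicate 4 as their highest libraries.

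The rest of the family had 17 rows in the table. Of these, 3 had 0 counts in all libraries, 12 stayed under 2 CPM in every library, those 3 included, and 6 passed the filter of the age comparison. Scgb2b12, a beta-gamma gene, had the highest counts of these, at 304 and 1078 CPM at 32 weeks, against 1487 and 133 CPM at 8 weeks. Scgb2b7 stood at 75.9 and 189 CPM at 32 weeks, against 264 and 31.1 CPM at 8 weeks. The alpha gene Scgb1b3 stood at 20.1 and 69.3 CPM at 32 weeks, against 93.3 and 7.11 CPM at 8 weeks, while Scgb2b3, its numbered partner, named after its values were seen, had 2 and 6 counts at 32 weeks, against 1 and 6 at 8 weeks. Scgb1b20, the partner of Scgb2b20, had 0 and 49 counts at 32 weeks, against 65 and 4 at 8 weeks. All 6 tested had 8-week replicate 1 highest and 32-week replicate 4 next. Scgb2b12 and Scgb2b7 carry the same promoter element as Scgb2b2, Scgb2b20 and Scgb2b24.
Scgb2b12, chr7:32327401-32327450, minus strand: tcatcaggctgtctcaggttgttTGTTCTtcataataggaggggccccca
Scgb2b7, chr7:31705910-31705959, minus strand: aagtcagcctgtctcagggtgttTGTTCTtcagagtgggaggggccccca
The element did not follow the levels throughout the family. Scgb2b15 and Scgb2b17, at 0 counts in every library, and Scgb2b3 also held TGTTCT, and Scgb2b19, whose library order was that of Scgb2b2, held none (these were named after their values were seen). Across the alpha genes together, Scgb1b27 held 99.9% and 99.7% of reads at 32 weeks, against 99.6% and 99.9% at 8 weeks, and across the beta-gamma genes Scgb2b26 and Scgb2b27 held 98.4% and 95.3% at 32 weeks, against 93.1% and 98.7% at 8 weeks. Genes other than these thus took up to 6.95% of the beta-gamma reads, in 8-week replicate 1.

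The age comparison, 32 weeks over 8 weeks, was fitted across all genes. None of the 9 members passed (edgeR quasi-likelihood test, adjusted p = 0.999 for each), and 0 of 12810 genes did (0%), with 174 at an unadjusted p under 0.05 (DESeq2 called 3 genes and limma-voom 0, none of them members). The log2 fold change was 0.26 for Scgb1b27 (95% interval -0.99 to 1.4996), 0.38 for Scgb2b27 (-0.83 to 1.59) and 0.21 for Scgb2b26 (-1.21 to 1.64). It was -0.81 for Spt1 (-3.99 to 2.37), -0.66 for Scgb2b2, -0.55 for Scgb2b24, -0.30 for Scgb2b20, 0.20 for Scgb1b2 and 0.12 for Scgb1b24. The 5 positive and 4 negative values had a median of 0.12, against -0.01 over all genes tested, of which 48.3% were positive. The ages overlapped in all 9 members, while they did not overlap in 28.6% of genes tested. Of the 6 other secretoglobins tested, 2 had a positive and 4 a negative fold change, with a median of -0.16, and 0 passed.

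Single libraries decided the sign of all 9 members, and once the call. The sign of each member turned under at least 1 of the 4 fits that left out a library. How many of all genes tested also turned was not counted, so the turns are not read as a trait of the members. Without 32-week replicate 4, where 32-week replicate 3 stands alone and is assumed to vary like the 8-week libraries, Scgb2b2 (log2 fold change -2.65, edgeR adjusted p = 0.000299), Scgb2b24 (-2.41, edgeR adjusted p = 0.00231), Scgb2b20 (-1.79, edgeR adjusted p = 0.026) and the non-member Scgb1b20 passed, among 17 of 13042 genes (0.13%). Without 8-week replicate 1, the fold changes of Scgb2b2, Scgb2b24, Scgb2b20 and Spt1 were 2.83, 2.97, 2.91 and 2.42 and none passed, while 285 of 13267 genes did (2.15%). An exact two-sided permutation test of 2 libraries against 2 can give no p below 0.333.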

How the data were processed

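RNA sequencing counts were analysed for 4 libraries of female Nkx2-3 knockout sublingual glands, 2 per age. Per the labels' protocols, RNA was extracted with Trizol from frozen glands and libraries were made with an Illumina TruSeq kit. Reads were aligned with STAR to mm9, per the submitters' processing notes. No source used here gives the STAR version, counting tool, annotation, strand setting or read length, so reads of overlapping genes on opposite strands cannot be told apart. The deposited values are whole-number counts per gene symbol, not normalized.

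From these, TMM factors, CPM and the age comparison (edgeR 4.0.16 quasi-likelihood test, default filter, Benjamini-Hochberg over 12810 genes, threshold 0.05, age as the only term) were computed in R 4.3.3, with limma 3.58.1 and DESeq2 1.42.0 as alternatives. The fitting script was tested on simulated data with 200 changed genes. Log values used log2(CPM + 0.5). A count of 0 allows up to 3 counts, or 0.174 to 0.221 CPM by library. Transcript lengths and positions came from GENCODE vM1 on NCBIM37, matched through RefSeq promoter sequences. Identities were computed with Biopython 1.88 and figures drawn with matplotlib 3.10.9. The members, lists and tests were chosen with earlier results of these data known. Named were the 9 members, other Scgb rows reaching 10 CPM or partnering a member, and for each member of at least 10 CPM the 3 nearest non-members. The myoepithelial and skeletal muscle marker lists summed to 480 and 563, and 3.73 and 6.75 CPM at 32 weeks, against 404 and 475, and 2.66 and 4.83 CPM at 8 weeks. A further marker list is not reported here.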

Additional observations from a re-analysis of the deposited data

How the results depend on the processing

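Over all genes, 0 passed with RLE size factors, with the normalization computed without the 10 most abundant genes, with a filter of 1 CPM in 3 libraries and with limma-voom, while 10 passed with total counts only, 7 with no low-count filter and 3 with DESeq2, none of them members. With 1 library left out, 6 to 285 genes passed over all genes, and 0 to 1 other secretoglobin. The causes were not tested. Fold changes of members turned sign in limma-voom for Scgb2b2 (0.018), Scgb2b20 (0.49) and Scgb2b24 (0.19). With 1 library left out they ranged from -2.41 to 3.61 for Scgb1b2, -1.95 to 2.9986 for Scgb1b24, -0.10 to 0.74 for Scgb1b27, -2.65 to 2.83 for Scgb2b2, -1.79 to 2.91 for Scgb2b20, -2.41 to 2.97 for Scgb2b24, -0.55 to 1.11 for Scgb2b26, -0.0074 to 0.93 for Scgb2b27 and -3.47 to 2.42 for Spt1. Leaving the 10 most abundant genes out of library sizes raises every CPM by construction, to a mean log2 CPM of 15.66 for Scgb1b27, 13.44 for Scgb2b26 and 15.32 for Scgb2b27. With the shortest transcript, a choice made after seeing the data, Scgb1b27 reached a mean log2 CPM per kilobase of 15.66, and its log2 ratio to Scgb2b27 per kilobase was 0.54, or 0.20 with the mean length, against -0.08 with the longest. In reads, that ratio was 0.34, against -0.066 for the sums over all alpha and all beta-gamma genes. No paired analysis was possible because the ages share no replicate numbers.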
